A study of Homo sapiens with 6 samples.

Results

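Annexins are proteins that bind phospholipid membranes when calcium rises, through a core of repeated domains, and each member carries its own N-terminal tail that recruits partners such as S100 proteins. They take part in membrane repair, vesicle traffic and the assembly of proteases at the cell surface. ANXA10 is a less studied member that is best known from gastric epithelium, while ANXA1, ANXA2 and ANXA5 are abundant in many mesenchymal and tumour cells.

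Expression of the annexin genes was examined in U2OS cells, a human osteosarcoma line, carrying either a stable knockdown of TUSC4 by shRNA (TUSC4 shRNA, 3 samples) or a control shRNA in the parental cells (control shRNA, 3 samples). TUSC4, now named NPRL2, is a subunit of the GATOR1 complex, which restrains the growth kinase mTORC1. The labels do not say how many shRNA sequences or clones the stable cells came from, nor whether the 3 samples of a group were separate cultures, so a p-value here speaks to the scatter among 3 samples a group, and that scatter could be technical. The members were all probes whose gene symbol on the array was ANXA1 to ANXA7, ANXA9, ANXA10 or ANXA11, which gave 16 probes of 10 genes among 47231 probes and 31334 gene symbols. The family was selected on measured values, since ANXA10 had the largest rise of any tested gene in this same comparison. The ANXA10 difference is therefore given as a description without a test. The other 9 genes were taken for their name.

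On each array 20378 to 21485 probes exceeded an estimated background, and precision is limited by how few arrays there were. The TUSC4 probe itself had signals of 366, 345 and 481 with the TUSC4 shRNA, against 1105, 943 and 977 with the control shRNA. Its normalized log2 difference was -1.18 ± 0.10 (SE, limma adjusted p = 9.16e-07). Of the mesenchymal and bone markers, 7 of 10 were measured, among them VIM, SPARC, COL1A1 and RUNX2, while COL1A2, SP7 and IBSP did not pass the filter on dim probes. Of the 4 epithelial markers, CDH1, KRT19 and KRT20 did not pass it either. The remaining epithelial marker, TACSTD1 (EPCAM), passed it and was above background on 3 of 3 arrays in both groups. The 6 arrays lay on 1 BeadChip with each group in neighbouring positions, so position and group cannot be told apart.

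The sequence before the start site is shown for the member whose groups lay farthest apart, ANXA10, and for ANXA1 and ANXA2. The windows are the 250 bases before the annotated start in RefSeq (GRCh38.p14), ANXA10 at chr4:168092287-168092536 on the plus strand, ANXA1 at chr9:73151615-73151864 on the plus strand and ANXA2 at chr15:60397987-60398236 on the minus strand. Each is written 5′ to 3′, and capitals mark every CG dinucleotide and every TATAAA, the core of a TATA box.
ANXA10: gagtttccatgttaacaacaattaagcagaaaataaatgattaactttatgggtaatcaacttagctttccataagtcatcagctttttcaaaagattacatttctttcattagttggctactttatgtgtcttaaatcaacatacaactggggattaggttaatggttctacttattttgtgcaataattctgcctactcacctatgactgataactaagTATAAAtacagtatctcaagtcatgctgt
ANXA1: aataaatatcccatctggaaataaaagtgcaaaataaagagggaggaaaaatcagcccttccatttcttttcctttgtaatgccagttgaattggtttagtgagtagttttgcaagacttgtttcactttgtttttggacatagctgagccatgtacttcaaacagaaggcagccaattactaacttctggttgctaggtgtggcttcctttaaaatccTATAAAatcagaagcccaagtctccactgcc
ANXA2: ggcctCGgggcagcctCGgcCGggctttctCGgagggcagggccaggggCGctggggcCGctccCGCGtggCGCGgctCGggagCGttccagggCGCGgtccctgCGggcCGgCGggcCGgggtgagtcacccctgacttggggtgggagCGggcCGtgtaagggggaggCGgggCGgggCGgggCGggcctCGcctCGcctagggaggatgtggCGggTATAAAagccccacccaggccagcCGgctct
The ANXA10 window held no CG dinucleotide, as did the ANXA1 window, and 6.06% of the 35116 RefSeq promoter windows of this length share that. The ANXA2 window held 28 CG dinucleotides, against a median of 11 over all windows. The windows of the other members, which are not printed, held from 4 (ANXA9) to 36 (1 ANXA4 window), and that of ANXA5 held 31. TATAAA, searched on both strands, began 29 bases before the start in ANXA10, 31 in ANXA1 and 31 in ANXA2, and it occurred in 10.7% of all windows. Among the other members, only 1 of the 3 ANXA11 windows held it, 61 bases before that start. The AP-1 motif TGANTCA was present in the ANXA2 window alone among the 14 windows of the 10 members, against 6.57% of all windows. The ATF4 motif TGATGNAA was in none of the 14, against 3.14% of all windows. These matches describe the letters in these windows and no binding was measured.

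ANXA10 was close to background in control cells and bright in knockdown cells. Its single probe had average bead signals of 2342, 2037 and 2513 with the TUSC4 shRNA, against 146, 131 and 132 with the control shRNA. All 3 knockdown samples lay far above all 3 controls. The control signals stood a little over the median of all probes on their arrays (128, 123 and 123) and were above the estimated background on 3 of 3 control arrays. After background correction and quantile normalization, the log2 intensity averaged 11.25 ± 0.10 with the TUSC4 shRNA and 6.42 ± 0.06 with the control shRNA (SD, n = 3 each). The lowest knockdown sample exceeded the highest control by 4.69 on that scale. The log2 difference was 4.83 ± 0.10 (SE), a fold of 28.3, and the next largest rise among the 15300 genes tested was 2.77.

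The size of that fold differed between processing settings. The control mean lay 0.11 on the log2 scale above the lowest value counted as above background, and the part of this in those differences was not tested. The ratio of mean signals without any correction was 16.9. The log2 difference was 4.07 with the authors' deposited log2 values, 4.23 without background correction and 5.54 with an offset of 16 in place of 50. The plot of ANXA10 by processing setting shows that leaving out any 1 sample moved it far less, between 4.77 and 4.86. The array carries 1 ANXA10 probe, so no second probe checked it. In RNA from whole cultures, a few cells with much ANXA10 and all cells with a moderate amount cannot be told apart.

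**Figure D1:**
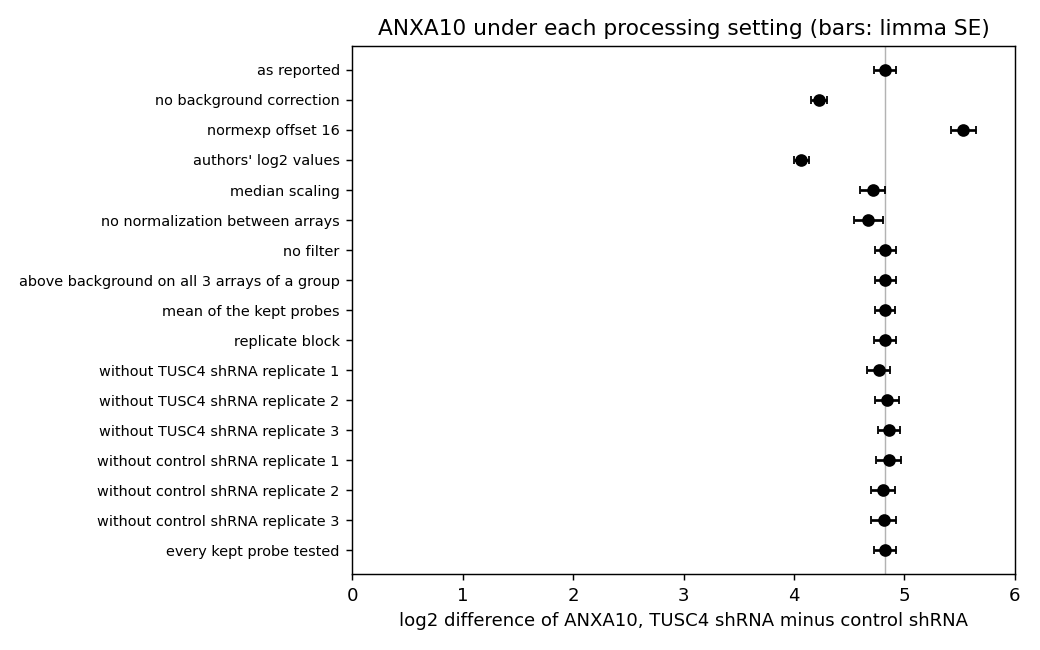
Log2 difference of ANXA10, TUSC4 shRNA minus control shRNA (horizontal axis), under the reported setting and 16 alternatives (vertical axis), with limma standard errors as bars and a grey line at the reported value of 4.83. The values range from 4.07 with the authors' log2 values to 5.54 with an offset of 16, and those that leave out a sample stay between 4.77 and 4.86.

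The other annexins differed by small amounts in both directions. Of the 9 genes, 8 had a probe that passed the filter. ANXA1, ANXA3 and ANXA4 were called higher, ANXA2 and ANXA6 were called lower, and ANXA5, ANXA7 and ANXA11 did not pass (limma, Benjamini-Hochberg adjusted p under 0.05 over all 15300 genes). In all, 5 of 8 were called, 3 higher and 2 lower, while 26.9% of all tested genes were called, 13.3% higher and 13.6% lower. Knockdown and control samples were fully separated in normalized value for 6 of the 8, against 40.5% of all genes. Before normalization the signals of ANXA1, ANXA3, ANXA4 and ANXA7 overlapped between groups, while those of the brightest ANXA2 and ANXA6 probes did not. Log2 differences of the 8 genes ran between -0.60 and 0.52, with a median of 0.29 against 0.00 for all genes tested. The median size of the difference was 0.31, against 0.17 for all genes. ANXA10 exceeded the highest of the others by 4.31 on the log2 scale.

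**Figure D2:**
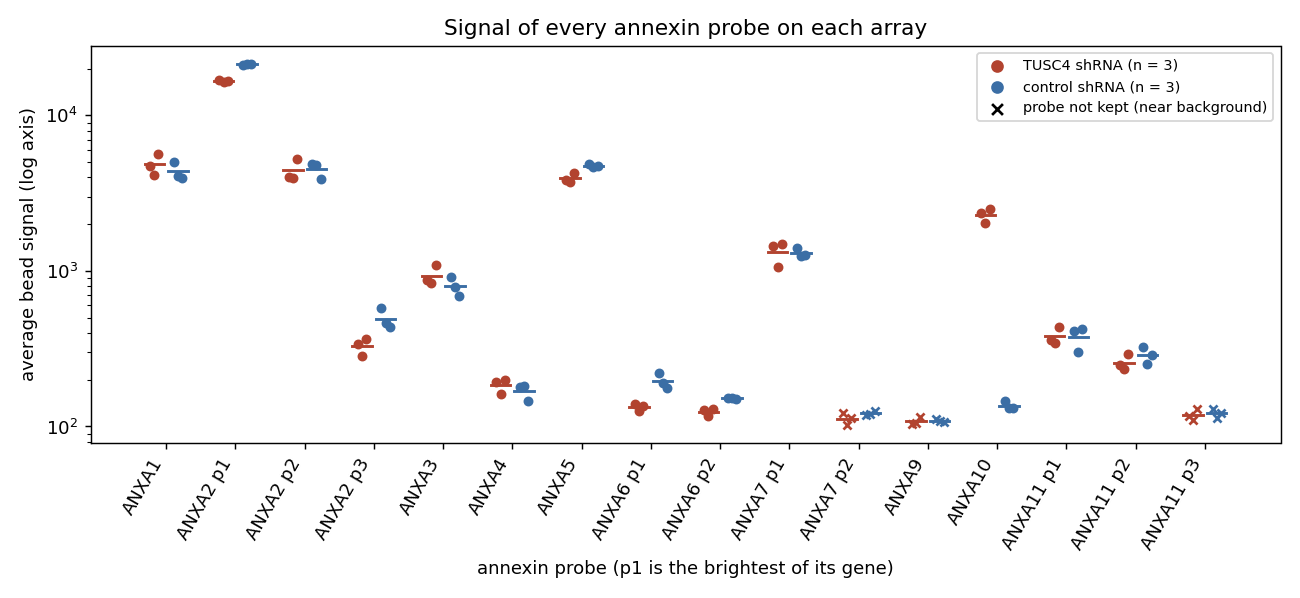
Average bead signal (log axis) of the 16 annexin probes on each of the 6 arrays, with TUSC4 shRNA samples left of control shRNA samples, group means as lines, and crosses for the 3 probes that did not pass the filter. The ANXA10 groups are apart by over a decade, while the groups of every other probe lie close to each other or overlap; levels of different probes are not comparable.

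ANXA6, a large annexin with a duplicated core that takes part in endocytic traffic and cholesterol distribution, fell. Its brighter probe had signals of 140, 126 and 135 with the TUSC4 shRNA, against 221, 190.4 and 177 with the control shRNA. The other kept probe had signals of 127, 116 and 130.3 with the TUSC4 shRNA, against 152, 153 and 149 with the control shRNA. The groups did not overlap for either probe. The log2 difference of the brighter probe was -0.60 ± 0.10 (SE, limma adjusted p = 0.000541), and the dimmer one gave -0.30 ± 0.10 (limma adjusted p = 0.0319 with every kept probe tested, at which 24.3% of probes were called). On the knockdown arrays the dimmer probe exceeded background on 1 of 3. The ANXA6 call held under all 16 alternatives, and its log2 difference ranged from -0.87 with an offset of 16 to -0.35 with the authors' values.

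ANXA2, which binds S100A10 and gathers plasminogen and its activator at the cell surface, was lower by 2 of its 3 probes. The brightest probe had signals of 16969, 16338 and 16764 with the TUSC4 shRNA, against 21160.2, 21312 and 21428 with the control shRNA. Its dimmest probe had 338, 285 and 365 with the TUSC4 shRNA, against 581, 462 and 433 with the control shRNA. Neither of these probes had overlapping groups, and their log2 differences were -0.32 ± 0.10 (limma adjusted p = 0.0209 over genes) and -0.36 ± 0.10 (limma adjusted p = 0.0166 over probes). The middle probe had 4031, 3974 and 5283 with the TUSC4 shRNA, against 4895, 4800.4 and 3883 with the control shRNA. Those groups overlapped, with a log2 difference of 0.10 ± 0.10 (limma adjusted p = 0.514 over probes). The mean of the 3 probes gave -0.19 and ended the call (limma adjusted p = 0.127). The call was also lost with an offset of 16 and without any one of the 3 control samples or TUSC4 shRNA replicate 3, with adjusted p up to 0.0705 in these and a range of 0.00846 to 0.127 over all alternatives.

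The ANXA2 pseudogenes are near-identical copies whose probes may also detect ANXA2, so which copy a probe reports is uncertain. ANXA2P1, ANXA2P2 and ANXA2P3 had log2 differences of -0.07, -0.05 and -0.17, and none passed (limma adjusted p of 0.662, 0.793 and 0.214). ANXA2P3 had signals of 839, 759 and 1022 with the TUSC4 shRNA, against 1249, 1076 and 1165 with the control shRNA. Its groups did not overlap.

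ANXA3, a small annexin once purified from placenta as an anticoagulant protein, was called higher. Its signals were 869, 832 and 1088 with the TUSC4 shRNA, against 914, 789.7 and 691 with the control shRNA. These signals overlapped before normalization. After it they did not, and the log2 difference was 0.52 ± 0.10 (SE, limma adjusted p = 0.00119). ANXA4, which is enriched in epithelia and aggregates membranes, had signals of 193, 162 and 198 with the TUSC4 shRNA, against 179, 183 and 147 with the control shRNA. Its normalized log2 difference was 0.38 ± 0.12 (SE, limma adjusted p = 0.0243). ANXA1, the glucocorticoid-regulated annexin that acts on formyl peptide receptors, had signals of 4717, 4120.2 and 5682 with the TUSC4 shRNA, against 5042, 4105 and 3973 with the control shRNA. The normalized log2 difference was 0.28 ± 0.10 (SE, limma adjusted p = 0.0375).

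All 3 calls of a higher annexin were lost with median scaling and without normalization between arrays, which gave the median gene a difference of -0.12 and -0.16. With median scaling the log2 differences were 0.28 for ANXA3 (limma adjusted p = 0.132), 0.25 for ANXA4 (limma adjusted p = 0.194) and 0.18 for ANXA1 (limma adjusted p = 0.332). ANXA1 also missed the threshold without TUSC4 shRNA replicate 1 or any one control sample, and ANXA4 missed it without TUSC4 shRNA replicate 1, control replicate 1 or control replicate 3. ANXA3 kept its call whichever sample was left out. The ranges of the limma adjusted p over the alternatives were 0.000666 to 0.254 for ANXA3, 0.00873 to 0.328 for ANXA4 and 0.00919 to 0.517 for ANXA1.

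ANXA5, which binds phosphatidylserine and is used to stain dying cells, did not pass. Its signals were 3846, 3759 and 4289 with the TUSC4 shRNA, against 4858, 4683 and 4751 with the control shRNA. The signals did not overlap, but the normalized values did, with a log2 difference of -0.12 ± 0.10 (SE, limma adjusted p = 0.428). ANXA7, also called synexin, which promotes fusion of secretory granules, had signals of 1436, 1068 and 1488 with the TUSC4 shRNA, against 1399, 1242 and 1259.8 with the control shRNA. Its log2 difference was 0.30 ± 0.11 (SE, limma adjusted p = 0.0536), and it passed in 5 of the 16 alternatives, among them that without TUSC4 shRNA replicate 2 (0.39, limma adjusted p = 0.0221). ANXA11, which links RNA granules to lysosomes, had signals of 358, 342 and 437 with the TUSC4 shRNA, against 409, 299.9 and 426 with the control shRNA. The groups overlapped, with a log2 difference of 0.30 ± 0.12 (SE, limma adjusted p = 0.0818), and without control replicate 3 it was 0.44 and passed (limma adjusted p = 0.0168). The other kept ANXA11 probe gave 0.08 ± 0.10.

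ANXA9, an annexin whose core lacks working calcium sites, was above background on none of the 6 arrays. Its signals were 103, 105 and 115 with the TUSC4 shRNA, against 112, 108 and 107 with the control shRNA. Of the second ANXA7 probe and the third ANXA11 probe the same was true, and no difference is given for these 3 probes.

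Among annexin genes outside the 10, ANXA8, an annexin with anticoagulant activity, was the only one called with the settings used. Its brighter probe had signals of 127, 134 and 154 with the TUSC4 shRNA, against 315, 256 and 306 with the control shRNA. Every knockdown value lay below every control. ANXA8 fell by 1.21 ± 0.11 on the log2 scale (SE, limma adjusted p = 1.36e-06), and it was called lower under all 16 alternatives, between -1.60 and -0.79. Its other probe did not pass the filter and had signals of 112, 99.5 and 109 with the TUSC4 shRNA, against 129, 129.8 and 123 with the control shRNA. The near-identical copies ANXA8L1 and ANXA8L2 had fitted log2 differences of -0.22 ± 0.09 and 0.25 ± 0.11, neither of which passed (limma adjusted p of 0.0949 and 0.123), and these probes may not separate the 3 genes. ANXA8L1 was above background on none of the knockdown arrays and on 3 of 3 control arrays, so its fitted difference rests on values near background. With its knockdown values raised to the lowest value seen above background, control exceeded knockdown by 1.07-fold, and no difference was called. ANXA13 and C5orf39, the ANXA2 receptor gene ANXA2R, did not pass the filter. Of the 6 annexin genes and pseudogenes tested outside the 10, 1 was called lower here. With an offset of 16, with median scaling or without normalization between arrays, 2 were called lower.

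**Figure D3:**
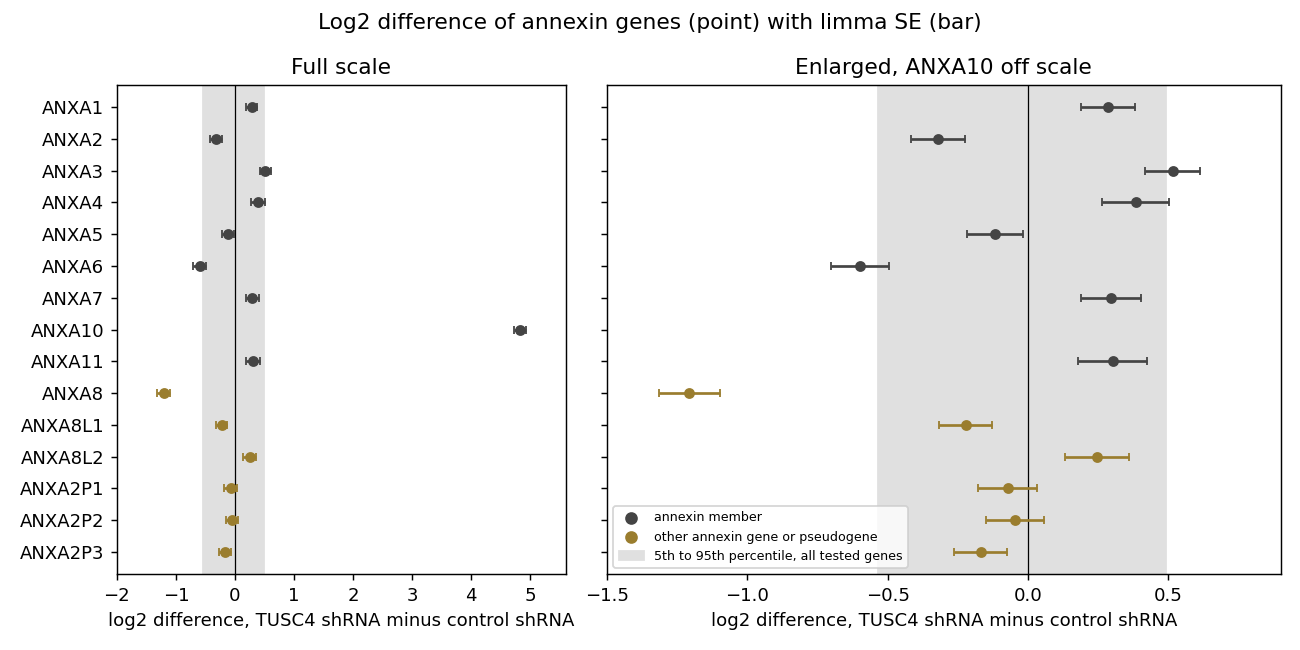
Log2 difference (TUSC4 shRNA minus control shRNA, horizontal axis) of the 9 tested annexins (dark) and 6 other annexin genes and pseudogenes (ochre), with limma standard errors as bars; the grey band spans the 5th to 95th percentile of all tested genes (-0.53 to 0.49). On the full scale (left) ANXA10 lies alone at 4.83, and the enlarged scale (right) shows the others between -1.21 for ANXA8 and 0.52 for ANXA3.

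The genes next to ANXA10 on chromosome 4 had far smaller differences. Of the 20 nearest tested genes, 7 were called higher and 3 lower, against 13.3% higher and 13.6% lower over all tested genes. Their median log2 difference was 0.08, with a range of -0.58 to 0.50, and with median scaling the median was -0.00. The nearest on one side was TLL1, a secreted metalloprotease, which was above background on none of the knockdown arrays and at least 1.28-fold lower there than in control cells (limma adjusted p = 0.00248). Next came CPE, a carboxypeptidase of secretory granules, and SC4MOL, a cholesterol synthesis enzyme, with log2 differences of -0.10 ± 0.11 and -0.58 ± 0.11 (limma adjusted p of 0.527 and 0.000845). On the other side were DDX60 and DDX60L, interferon-inducible helicases, with 0.01 ± 0.10 and 0.05 ± 0.10 (limma adjusted p of 0.957 and 0.775), and PALLD, an actin-binding protein, with -0.54 ± 0.12 (limma adjusted p = 0.00403). Averaging its kept probes ended the SC4MOL call (-0.21, limma adjusted p = 0.153), and the sign of DDX60L turned without normalization between arrays. The sign of DDX60 turned in 5 of the 15 alternatives that held it. These were median scaling, no normalization between arrays, and leaving out TUSC4 shRNA replicate 1 or 2 or control replicate 2. DDX60 was above background on 2 of 3 knockdown and 1 of 3 control arrays.

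**Figure D4:**
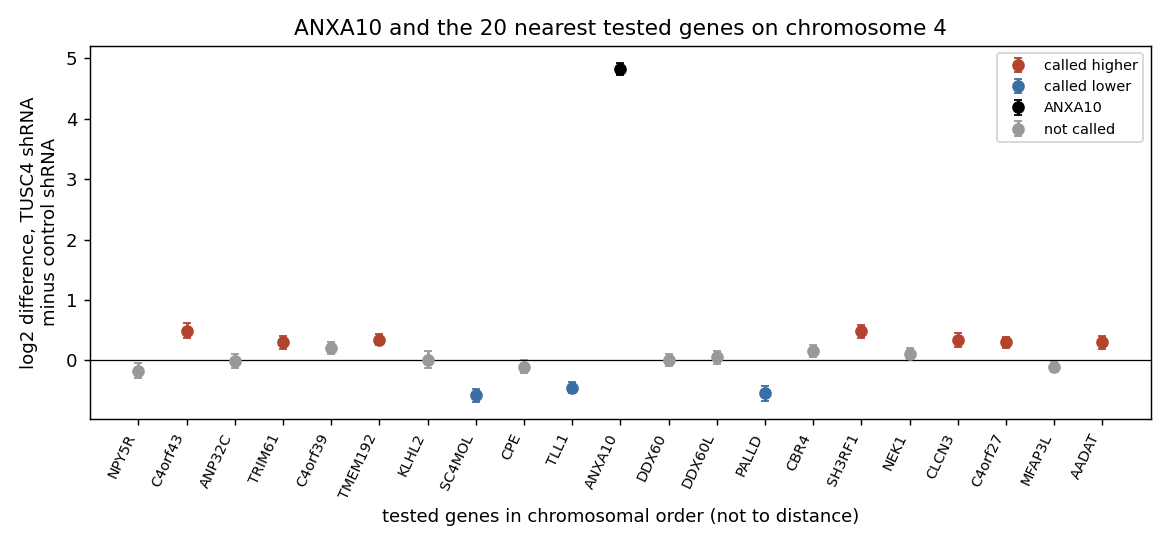
Log2 difference (TUSC4 shRNA minus control shRNA) with limma standard errors of ANXA10 and the 20 nearest tested genes in chromosomal order, which is not to distance. ANXA10 stands at 4.83, and its neighbours, called higher (red), called lower (blue) or not called (grey), lie between -0.58 and 0.50.

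The other annexins had neighbours with medians near 0. The median log2 difference of the 20 nearest tested genes lay between -0.07, around ANXA6, and 0.09, around ANXA7. Set against 13.3% higher and 13.6% lower over all genes, the neighbours called higher numbered 7 of 20 around ANXA7, 4 around ANXA1, 3 around ANXA4, 2 around ANXA2 and ANXA5, 1 around ANXA3 and ANXA11 and 0 around ANXA6. Those called lower numbered 5 around ANXA5, 4 around ANXA11, 3 around ANXA3 and ANXA4, 2 around ANXA6 and ANXA7, and 1 around ANXA1 and ANXA2. The highest neighbour of ANXA7 had a log2 difference of 1.52. Around ANXA8 the median was -0.03, with 4 higher and 1 lower.

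The S100 genes encode small calcium-binding proteins, several of which bind annexin tails. Of 20 on the array 10 passed the filter, and of these 3 rose, 1 fell and 6 did not pass the test, against 13.3% higher and 13.6% lower over all genes. The median log2 difference was 0.10, and with median scaling 1 was called higher and 2 lower. S100A11, a partner of ANXA1, rose by 0.86 ± 0.11 (SE, limma adjusted p = 2.96e-05) and was called under all 16 alternatives. Its normalized log2 values were 10.97, 11.04 and 11.29 with the TUSC4 shRNA, against 10.20, 10.33 and 10.18 with the control shRNA. S100A6, which binds ANXA11 and ANXA2, rose by 0.61 ± 0.13 and S100A3 by 0.40 ± 0.09 (limma adjusted p of 0.00236 and 0.00440), and neither passed with median scaling or without normalization between arrays. S100A4, linked to cell motility, fell by 0.36 ± 0.10 (limma adjusted p = 0.0155), a call lost without TUSC4 shRNA replicate 2, control replicate 1 or control replicate 2. S100A10, the partner of ANXA2, was named after its value was seen and had a log2 difference of 0.14 ± 0.09 (limma adjusted p = 0.293).

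In the plasmin system, which ANXA2 serves, 3 of 6 measured genes rose and 1 fell, against 13.3% and 13.6% of all genes, with a median of 0.20. With median scaling 1 was called higher and 1 lower. SERPINE2, a secreted inhibitor of thrombin and of plasminogen activators, rose by 1.17 ± 0.09 (SE, limma adjusted p = 5.37e-07). The plasminogen activator gene PLAT fell by 0.51 ± 0.12 (limma adjusted p = 0.00463), and both calls held under all 16 alternatives. PLAU, the other plasminogen activator, had 0.29 ± 0.10 and C9orf46 (PLGRKT, a plasminogen receptor) 0.34 ± 0.11 (limma adjusted p of 0.0349 and 0.0374). Each of these 2 calls was lost in 8 of the 16 alternatives, median scaling among them. For PLAU they included leaving out TUSC4 shRNA replicate 2 or 3 or control replicate 2 or 3, and for C9orf46 leaving out any one sample but TUSC4 shRNA replicate 2.

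Among membrane repair genes and partners of the penta-EF-hand class, 4 of 20 measured genes rose and 2 fell, a share near the 26.9% of all genes called, with a median of 0.03. The balance depended on the scaling, with 0 higher and 4 lower under median scaling and 0 higher and 5 lower without normalization between arrays. CAV1, the caveolar coat protein, fell by 0.84 ± 0.10 and AHNAK, a giant scaffold that binds the ANXA2 complex, by 0.84 ± 0.10 (SE, limma adjusted p of 1.90e-05 and 2.19e-05). Both were called lower under all 16 alternatives, and the kept AHNAK probes ranged from -0.84 to -0.26. The genes CHMP4A and CHMP4B, of the ESCRT-III membrane scission machinery, had 0.30 ± 0.10 and 0.33 ± 0.09 (limma adjusted p of 0.0288 and 0.0152). Neither passed with median scaling or without control replicate 3, nor CHMP4A without TUSC4 shRNA replicate 1, TUSC4 shRNA replicate 3 or control replicate 1. The other higher calls, SRI and PEF1, were lost in 13 and 11 of the 16 alternatives. The copines are another family of calcium-dependent membrane proteins. Of 4 measured, 1 was called lower and 3 did not pass, against 13.6% of all genes called lower. The 1 called, CPNE3, fell by 0.58 ± 0.11 (limma adjusted p = 0.000881).

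Glucocorticoid response genes, a class to which ANXA1 belongs, were mixed. Of 10 measured, 2 rose and 3 fell, against 13.3% and 13.6% of all genes, with a median of 0.06. With median scaling 1 was called higher and 3 lower. MT2A, a metallothionein gene, rose by 0.54 ± 0.10, and SGK (SGK1, a kinase) fell by 0.52 ± 0.11 (SE, limma adjusted p of 0.000599 and 0.00184), both under all 16 alternatives. KLF9, a transcription factor gene, had 0.35 ± 0.11 and DUSP1, a phosphatase gene, -0.39 ± 0.12 (limma adjusted p of 0.0316 and 0.0251). KLF9 lost its call with median scaling, without either TUSC4 shRNA replicate 1 or 2 and without control replicate 2. DUSP1 lost it without TUSC4 shRNA replicate 3, control replicate 2 or control replicate 3. FKBP5, a chaperone partner of the glucocorticoid receptor, was named after its value was seen, had -0.30 ± 0.10 (limma adjusted p = 0.0419) and lost its call in 7 of the 16 alternatives, among them without any one sample but TUSC4 shRNA replicate 2. Of the formyl peptide receptors and the annexin A1 target PLA2G4A, FPR1 alone passed the filter, with -0.04 ± 0.10 (limma adjusted p = 0.812).

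**Figure D5:**
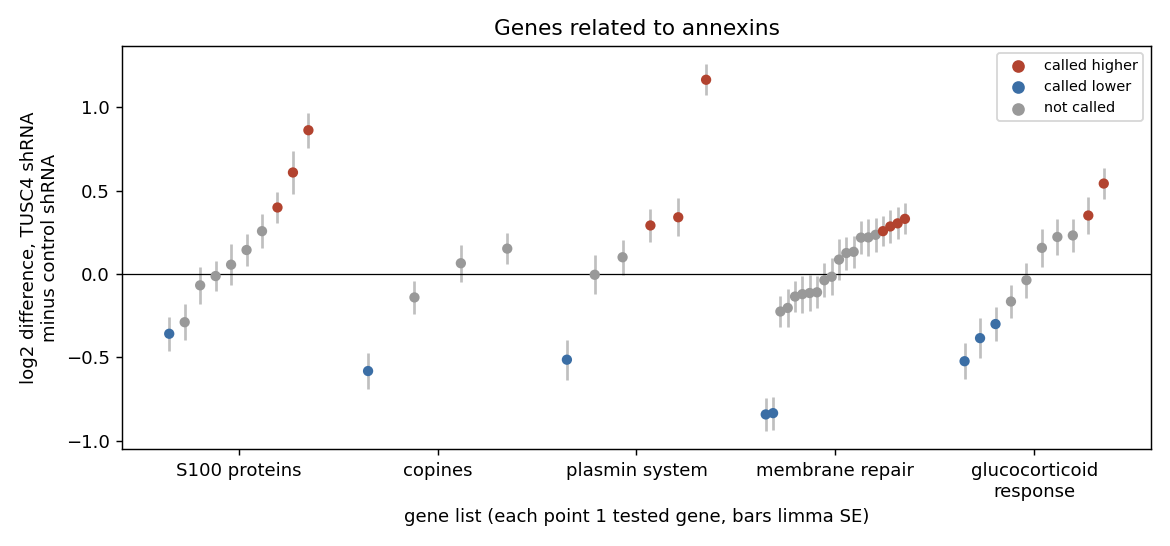
Log2 difference (TUSC4 shRNA minus control shRNA) of each tested gene in 5 lists related to annexins, with limma standard errors as bars and colours for genes called higher (red), lower (blue) or not called (grey). SERPINE2 is the highest point at 1.17, S100A11 follows at 0.86, and CAV1 and AHNAK are the lowest at -0.84.

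Most gastric epithelium markers did not pass the filter on dim probes. Of 11, MUC5AC and MUC6 passed the filter, and neither was called, with log2 differences of -0.07 ± 0.09 and -0.02 ± 0.09 (limma adjusted p of 0.658 and 0.927). The other 9, TFF1, TFF2, GKN1, GKN2, CLDN18, CTSE, VSIG1, PGC and LIPF did not pass it. The epithelial marker TACSTD1 (EPCAM) had 0.03 ± 0.09 (limma adjusted p = 0.854). Of the 4 leukocyte markers, PTPRC and CD3E did not pass the filter. CD79A and CD14 had 0.02 ± 0.10 and -0.00 ± 0.14 (limma adjusted p of 0.895 and 0.991). MUC6 was above background on 3 of 3 arrays in both groups. MUC5AC was above background on 1 of 3 knockdown and 2 of 3 control arrays, CD79A on 2 of 3 and 3 of 3, and CD14 on 2 of 3 in both groups. Of the 7 bone and mesenchymal markers tested, 1 was called higher and 2 lower, against 13.3% and 13.6% of all genes, with a median of -0.11. COL1A1 fell by 0.96 ± 0.11, RUNX2 by 0.68 ± 0.11 and SPP1 rose by 0.98 ± 0.10 (SE, limma adjusted p of 1.64e-05, 0.000277 and 4.14e-06). VIM (0.09), SPARC (-0.20), ALPL (-0.05) and BGLAP (-0.11) were not called. ALPL and BGLAP were each above background on 2 of 3 knockdown arrays. The other kept RUNX2 probe gave -0.01, and RUNX2 was above background on 2 of 3 knockdown arrays. The part of these differences in those of the annexins was not tested.

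The genes whose values over the 6 arrays were most like those of ANXA10, by Pearson's r of log2 intensity, were SERPINE2 (0.9991), FAM39DP (0.9982), FBXO4 (0.9980), FBXL13 (0.9978) and MMP3 (0.9976). With groups this far apart, such a correlation reflects mainly the step between them. Their log2 differences were 1.17, 0.90, 0.52, 2.77 and 1.66. FAM39DP belongs to a family of near-identical copies, so its probe may report several.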

How the data were processed

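Biotin-labelled RNA of 6 U2OS samples was measured on Illumina bead arrays. The deposited signal table gives 1 linear intensity a probe and array, the mean over its beads, with no scaling between arrays, as column names and values show. BeadStudio is named per the submitters' processing notes. The second deposited table holds the authors' processed log2 values, whose 6 columns have 1 common distribution; their making is not described in the sources used here, and they served as an alternative.

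Intensities were background-corrected with limma's normexp (offset 50), quantile-normalized and log2-transformed. The offset shrinks the folds of dim probes. No detection p-values were used; a substitute was derived on each array from the peak of the density of log2 signal (bandwidth 0.05) and the spread of the probes below it. Kept probes had this p under 0.05 on 3 or more of the 6 arrays, whatever their group (20657 probes, 881 of them without a symbol). A gene was its brightest kept probe, which gave 15300 genes. Groups were compared with limma 3.58.1 in R 4.3.3 (lmFit and eBayes, no covariates), with Benjamini-Hochberg adjustment over all genes, and a gene was called at an adjusted p under 0.05. For a called gene below background throughout 1 group, only a lower limit of the fold is given, with each dim array's value raised to the lowest value seen above background there. The fit was tested on simulated data. Differences are TUSC4 shRNA minus control shRNA.

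Chromosomal order came from the RefSeq gene table (GRCh38.p14), which placed 12285 tested genes; it gave only their order, since the array names no build. The promoter windows have coordinates of their own RefSeq table. The members, lists, tests and alternatives were chosen with earlier results of these data known. Genes were named by rule: all annexins, TUSC4, from each list the called members of smallest p (up to 4; in a list with no call, up to 2), the 3 tested genes on each side of ANXA10, and the 5 most correlated with it. S100A10, FKBP5, SRI and PEF1 were named besides, after their values were seen. Alternatives covered the background correction and offset, the authors' values, the scaling between arrays, the filter, the probe that stands for a gene, the replicate number as a block and leaving out each sample.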

Additional observations from a re-analysis of the deposited data

How the results depend on the processing

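Of 128 combinations of the 8 tested annexins other than ANXA10 with 16 alternatives, 100 kept the direction and the side of the threshold, 22 kept the direction but lost the call, 6 gained a call and 0 turned direction. The ANXA10 log2 difference was 4.23 without background correction, 5.54 with an offset of 16, 4.07 with the authors' values, 4.71 with median scaling and 4.67 without normalization, and its excess over the median of the other annexins was 3.95, 5.24, 3.82, 4.65 and 4.65 under the same settings. Without normalization the calls of ANXA1 (0.14), ANXA3 (0.24) and ANXA4 (0.21) were lost, as with median scaling (0.18, 0.28 and 0.25), leaving 0 other annexins called higher (limma). Those scalings called 384 and 619 of all genes higher and 3514 and 3457 lower, against 2035 and 2088 with quantile normalization. An offset of 16 ended the calls of ANXA1 (0.29) and ANXA2 (-0.32) and left 1 annexin called lower. The mean of the kept probes ended that of ANXA2 (-0.19), also leaving 1 lower, the authors' values that of ANXA4 (0.24) and no filter, with more genes tested, that of ANXA1 (0.28, limma adjusted p = 0.0515). ANXA7 passed without background correction (0.29), with the filter on all 3 arrays of a group (0.30) with the mean of the kept probes (0.30) and with the authors' values (0.30). The causes were not tested.

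Leaving out 1 sample at a time gave log2 differences of 0.25 to 0.33 for ANXA1, -0.35 to -0.26 for ANXA2, 0.27 to 0.50 for ANXA4, 0.19 to 0.39 for ANXA7 and 0.17 to 0.44 for ANXA11, with 1 to 4 other annexins called higher and 1 to 2 lower. Only 1 was called higher without TUSC4 shRNA replicate 1 or without control replicate 1, and only 1 lower without TUSC4 shRNA replicate 3 or any one control sample. Over all genes the same fits called 1479 to 2048 higher and 1554 to 2031 lower, against 2035 and 2088 with all samples. The fewest, 1479 higher and 1554 lower, came without control replicate 1. The replicate number as a block changed no annexin call (ANXA10 4.83, ANXA6 -0.60, 3 higher and 2 lower) and called 4077 genes against 4123. Same-numbered samples deviated together with r of 0.10, 0.05 and -0.11, so the numbers were not taken as pairs. Signals near background limit ANXA10 in control cells, ANXA6, ANXA8 and ANXA9.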
